A study of Rattus norvegicus with 10 samples.

Results

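Podocyte and slit diaphragm genes were followed in rat fetal kidney as 7 named genes: Nphs1, Wt1, Podxl, Synpo, Ptpro, Cd2ap and Actn4. A probe set was taken as a member when the platform's probe table gave it exactly 1 gene symbol and that symbol was one of the 7. This gave 11 probe sets of 15923 in all, for 6 genes: 2 for Nphs1, 2 for Wt1, 3 for Podxl, 2 for Synpo, 1 for Ptpro and 1 for Actn4. No probe set had Cd2ap as its only symbol, so its signal was not followed here. Total RNA of 10 whole fetal kidney samples, collected on day 22 of gestation, was hybridised to 1-colour Affymetrix arrays, 1 array per sample. The normal group (replicates 1 to 5) came from mothers on a regular diet, for which the labels name no implant. The treated group (replicates 6 to 10) came from Wistar females of 200 to 280 g on a normal diet, in which a 2 mm piece of a slow-release insulin implant had been placed under the skin a week before mating and again a week after it. The design text calls the fetuses of the treated group growth restricted. The sources used here do not give the strain of the normal mothers, fetal sex, litter or pooling. The p-values therefore cover the variation among these arrays alone, and some of that variation may be technical.

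Podocytes are the epithelial cells that wrap the capillaries of the glomerulus, the filter of the kidney. Their interlocking foot processes are joined by the slit diaphragm, a cell junction built around nephrin, the product of Nphs1, and anchored to the actin cytoskeleton from inside. Wt1 encodes a zinc finger transcription factor that is needed for the kidney to form and stays on in podocytes, where Nphs1 and Podxl are among its known targets. In the rat, new glomeruli are still being made at birth, so kidneys of this age hold both maturing podocytes and earlier stages of the nephron.

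None of the podocyte genes passed the test for a difference between the groups. Of the 11 probe sets, 9 were bright enough to be tested, at least 1 for each of the 6 genes, and 0 passed limma's test at an adjusted p of 0.05 (Benjamini-Hochberg over 9601 probe sets); 0 reached an unadjusted p under 0.05, and 0 of all 11 reached it in an exact permutation test. Among all tested probe sets, 0.0104% passed after adjustment, and 5.36% had an unadjusted p under 0.05. The groups overlapped for all 11 member probe sets, and 1.04% of the tested probe sets had groups that did not. The median log2 difference of the 9, treated minus normal, was 0.021, beside 0.0020 over all tested probe sets, with 5 higher and 4 lower. The 95% intervals of the 9 differences ran from 0.858-fold to 1.27-fold in all, each taken alone. Values after ± are SDs for signals (n = 5 arrays per group) and standard errors for log2 differences, and every log2 difference is treated minus normal on the scale log2(signal + 16), which understates changes of dim genes. In whole kidney, the number of podocytes and the RNA per podocyte cannot be told apart.

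**Figure D1:**
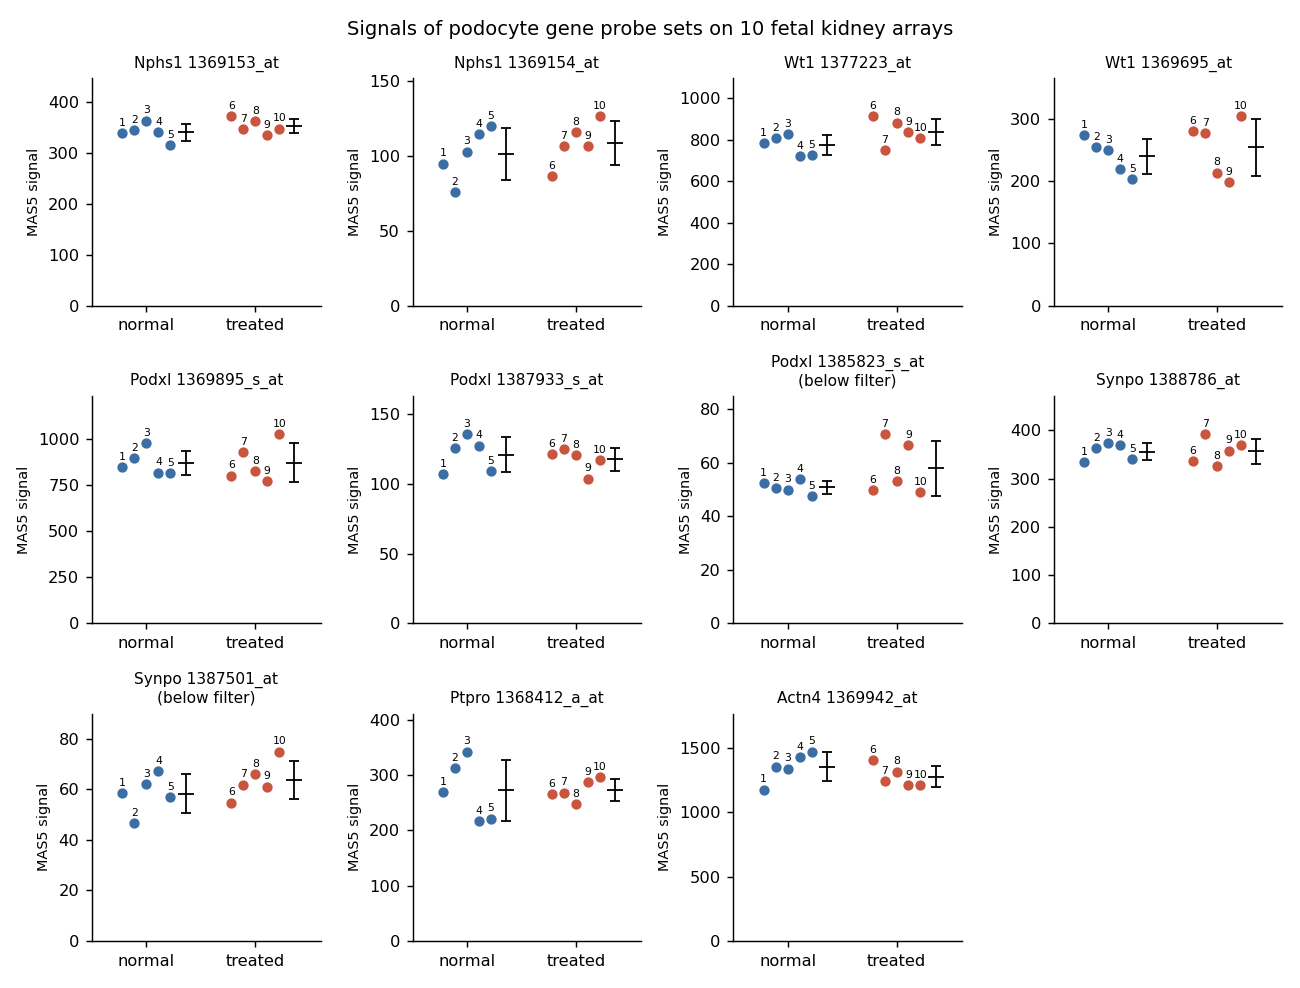
MAS5 signal (vertical axis, from 0) of each of the 11 member probe sets on the 5 normal and the 5 treated arrays, with replicate numbers beside the points and the mean ± SD to the right of each group. The groups overlap in every panel; the Ptpro signals of the normal arrays, from 216.7 to 342.3, spread around all those of the treated arrays.

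Some features of the arrays moved with the groups and bear on all the values below. Xist is the long RNA that silences an X chromosome in female cells. Its signals were 0.8 to 2 in the normal group and 42.4 to 70.5 in the treated group. Maternal treatment and Xist level therefore cannot be told apart. Xist was read from 1 dim probe set. Its treated signals were near those of Podxl 1385823_s_at (47.6 to 70.8), which was below the filter on every array. Of 11 genes of liver plasma proteins, 7 were tested. All 7 were higher in the treated group, with 5 at an unadjusted limma p under 0.05 and 0 passing after adjustment. Over all tested genes, 51.5% were higher and 5.16% had an unadjusted limma p under 0.05. The liver list, like the others, was chosen with earlier results of these data known, so its counts are a description. The filter counted arrays of both groups together, so high signals on treated arrays helped decide which genes were tested. Only 5 were tested without treated replicate 6, and 5 without normal replicate 4. The untested Ahsg, Apoa2, Fga and Apoh also had higher treated means (75.7, 53.0, 97.7 and 89.0 against 67.3, 10.3, 22.7 and 46.9). Alb on normal replicate 4 (842.2) was above every treated array except replicate 6. The summed signal of the 11 ran from 562 to 2122 on normal and from 778 to 5917 on treated arrays, and none was at 0. Treated replicate 6, with the highest Alb signal (1741.9), had the lowest median correlation with the other arrays (0.981, against 0.985 to 0.988 for the other 9). Leaving it out gave no call for any member. With the liver mean as a covariate, and without the 2 arrays with the most Alb, 0 members passed the adjusted threshold.

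Nphs1 encodes nephrin, the adhesion protein whose extracellular domains meet across the filtration slit. Its brighter probe set, 1369153_at, read 338.4, 344.6, 363.1, 339.8 and 315.6 on normal arrays 1 to 5 and 371.5, 346.9, 361.9, 334.3 and 347.3 on treated arrays 6 to 10. Treated replicate 6 was the 1 treated array above all normal ones, and no treated array lay below the lowest normal one. The means were 340 ± 17.0 and 352 ± 14.5, a log2 difference of 0.049 ± 0.059 (95% interval -0.077 to 0.17, limma adjusted p = 0.973). This probe set was among the steadiest on the array: its residual SD within groups was 0.063 on the log2 scale, and 5.02% of tested probe sets had a smaller one. The dimmer probe set, 1369154_at, read 95.1, 75.8, 103.1, 114.6 and 120 on normal arrays and 86.7, 106.5, 116.2, 106.8 and 126.7 on treated arrays. Its log2 difference was 0.087 ± 0.12 (limma, adjusted p = 0.973), and it was 0.00045 without normal replicate 2 and 0.15 without treated replicate 6. The array lowest for this probe set in each group, normal replicate 2 and treated replicate 6, was second highest and highest of its group for the brighter one.

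The stretches just upstream of the RefSeq starts of Nphs1 and Podxl are shown because both genes are known WT1 targets and because their base composition differs widely. Each has 250 bases on GRCr8, written 5′ to 3′ on the strand of the gene: chr1:94848011-94848260 on the plus strand for Nphs1 and chr4:61149132-61149381 on the minus strand for Podxl. Capitals mark, in Nphs1, its E-box (CANNTG), and in Podxl the GC boxes (GGGCGG on either strand, some overlapping each other).
Nphs1: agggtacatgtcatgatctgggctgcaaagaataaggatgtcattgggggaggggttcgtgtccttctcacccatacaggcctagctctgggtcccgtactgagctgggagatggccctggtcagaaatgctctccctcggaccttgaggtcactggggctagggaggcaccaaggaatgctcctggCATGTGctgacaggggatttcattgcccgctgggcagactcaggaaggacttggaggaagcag
Podxl: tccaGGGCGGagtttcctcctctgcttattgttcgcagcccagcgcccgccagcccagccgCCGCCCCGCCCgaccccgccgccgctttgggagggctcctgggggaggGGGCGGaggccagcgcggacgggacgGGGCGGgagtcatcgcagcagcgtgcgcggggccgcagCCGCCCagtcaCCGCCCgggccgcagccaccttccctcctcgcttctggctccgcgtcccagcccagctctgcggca
The Nphs1 stretch had 57.2% G and C and 4 CpG, that of Podxl 76.4% and 30, beside a median of 51.2% over 33469 promoter stretches of the same length. The E-box lay 63 to 58 bases before the start of Nphs1. E-boxes, the motif bound by TCF21 among many other factors, occurred in 65.5% of stretches. Podxl held 7 GC boxes, and at least 1 was present in 30.5% of stretches. The letters GCGTGGGAG and GCGGGGGCG, both forms of the WT1 and EGR site, were in neither stretch; they occurred in 0.338% and 2.45% of all stretches, and among the 6 members with a promoter entry GCGGGGGCG was found in Cd2ap alone. A match is a run of letters and not a bound site.

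Among the 9 tested probe sets the highest difference was one of Wt1, and it did not pass. Probe set 1377223_at read 785, 809.1, 828.6, 722 and 724 on normal arrays and 912.7, 749.3, 882.8, 836 and 808 on treated arrays. Treated replicates 6, 8 and 9 lay above every normal array, while replicates 7 and 10 lay among them. The means were 774 ± 48.8 and 838 ± 64.0, the treated mean being 8.27% above the normal one, and the difference did not pass (log2 difference 0.11 ± 0.064, 95% interval -0.026 to 0.25, limma adjusted p = 0.941; exact permutation p = 0.111 two-sided). The difference was 0.056 without the 2 arrays with the most Alb. Without treated replicate 7 it was 0.15 with an unadjusted p of 0.0283, and limma's adjusted p was 0.764. The other probe set, 1369695_at, read 274, 254, 249.3, 219.8 and 203.7 on normal arrays and 280.1, 276.5, 213.7, 198.2 and 304 on treated arrays. Here treated replicates 6, 7 and 10 were above all normal arrays and replicate 9 was below them all. Its log2 difference was 0.068 ± 0.11 (limma, adjusted p = 0.978), and treated replicates 8 and 9, high for the first probe set, were the lowest of their group for this one.

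Podxl encodes podocalyxin, the negatively charged sialomucin that coats the foot processes and also the endothelium. Its probe sets all carry the suffix that Affymetrix gives to sets able to match more than one transcript. The brightest, 1369895_s_at, read 845.8, 893, 974.3, 816.2 and 813.5 on normal arrays and 799.8, 927, 825.8, 772 and 1025.8 on treated arrays. Treated replicate 10 was the highest of all arrays and replicates 6 and 9 were the lowest, so the treated group spread to both sides of the normal group. The means were 869 ± 67.2 and 870 ± 105, the treated mean being 0.175% above the normal one. On the log2 scale the difference had the opposite sign (-0.0021 ± 0.079, limma adjusted p = 0.998). For 1387933_s_at the signals were 106.9 to 135.9 in the normal and 103.9 to 125.1 in the treated group, with a log2 difference of -0.035 ± 0.086 (limma, adjusted p = 0.985). The third, 1385823_s_at, stayed below the filter on every array: it read 47.6 to 53.8 on normal arrays and 49.7, 70.8, 53.2, 66.6 and 49.1 on treated arrays, so replicates 7 and 9 stood above all others (log2 difference 0.13, exact permutation p = 0.254 two-sided).

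Ptpro encodes GLEPP1, a receptor tyrosine phosphatase of the podocyte surface that is also made in neurons and leukocytes. Its probe set, 1368412_a_at, read 268.8, 312, 342.3, 216.7 and 221.1 on normal arrays and 266, 268.1, 246.9, 287 and 295.7 on treated arrays. The treated arrays all fell inside the range of the normal ones, whose coefficient of variation was 20.3% against 7.02% in the treated group; that difference in spread was not tested. The means were almost equal, 272 ± 55.2 and 273 ± 19.1 (log2 difference 0.021 ± 0.11, limma adjusted p = 0.993).

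Of the genes that tie the slit diaphragm to actin, Synpo encodes synaptopodin, which binds actin and alpha-actinin in foot processes and in the dendritic spines of neurons. Probe set 1388786_at read 334.6, 362.7, 373.1, 369 and 341 on normal arrays and 335.6, 392.5, 325.8, 358 and 369.5 on treated arrays. The highest array, replicate 7, and the lowest, replicate 8, were both in the treated group. The means were 356 ± 17.2 and 356 ± 26.7 (log2 difference -0.00092 ± 0.065, 95% interval -0.14 to 0.14, limma adjusted p = 0.998). The second Synpo probe set, 1387501_at, lay below the filter at 46.8 to 67.4 and 54.8 to 75.0 (log2 difference 0.10, exact permutation p = 0.317 two-sided).

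Actn4 encodes alpha-actinin-4, an actin cross-linking protein present in most cells and inherited in mutant form in a glomerular disease. Its probe set, 1369942_at, read 1174.9, 1353.2, 1337.7, 1425.8 and 1470.9 on normal arrays and 1402.1, 1240.4, 1315.8, 1210.2 and 1213.3 on treated arrays. Every treated array lay between the lowest and the highest normal array, and 1 of 5 was above the normal median. The means were 1353 ± 113 and 1276 ± 82.2 (log2 difference -0.081 ± 0.066, 95% interval -0.22 to 0.060, limma adjusted p = 0.973). With the liver mean as a covariate the difference was -0.17, with an unadjusted p of 0.0413 and a limma adjusted p of 0.918.

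**Figure D2:**
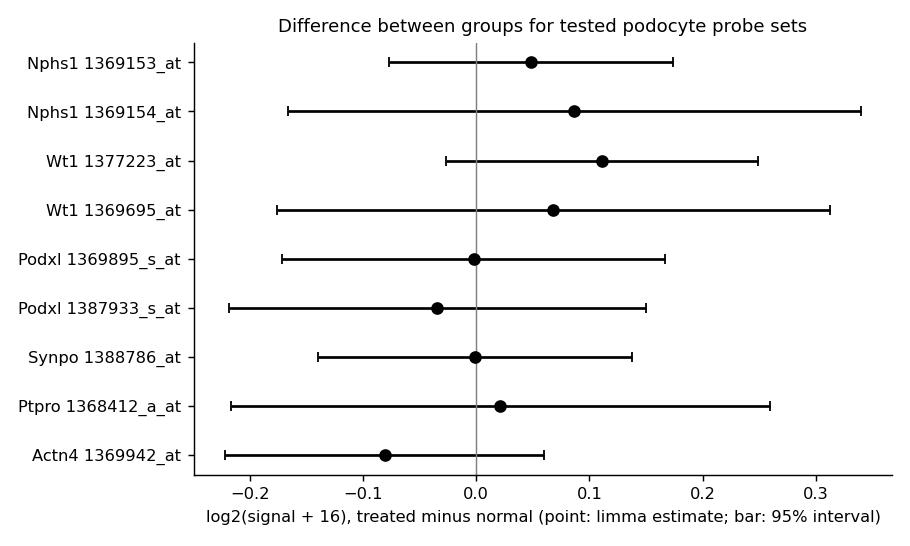
Log2 difference between the groups, treated minus normal (horizontal axis, log2(signal + 16)), for the 9 tested member probe sets; points are limma estimates and bars their 95% intervals, each taken alone. Every interval includes 0, and the estimates lie between -0.081 for Actn4 and 0.11 for Wt1.

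Probe sets of the same gene were also compared with each other from array to array. With group means removed, the 2 Nphs1 probe sets had a Pearson r of -0.44 over 10 arrays and those of Wt1 one of 0.086; the 2 brighter Podxl probe sets reached 0.49 and those of Synpo 0.22. None of these passed (exact permutation within groups, two-sided: p = 0.241, 0.832, 0.146 and 0.550; adjusted p = 0.630, 0.900, 0.596 and 0.888 over 21 relations). The dimmest Podxl probe set, 1385823_s_at, gave an r of -0.16 with the brightest and -0.083 with the other (exact permutation p = 0.725 and 0.857, adjusted p = 0.900 for both; rho = -0.15 and 0.15, adjusted p = 0.858 for both). For the first 4 pairs the rank correlations, Spearman's rho with ranks taken within groups, were -0.35, 0.20, 0.40 and 0.35 (exact permutation adjusted p = 0.797, 0.858, 0.797 and 0.797). Residual SDs of the 11 probe sets ran from 0.063 to 0.21 on the log2 scale, around the median of 0.13 for all tested probe sets.

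Between genes, taking the brightest probe set of each, 9 of 15 pairs were positively correlated across the arrays, with r from -0.52 to 0.71 and a median of 0.12. Nphs1 and Wt1 gave the highest value, r = 0.71 (exact permutation p = 0.0301, adjusted p = 0.316) and rho = 0.70 (exact permutation p = 0.0522, adjusted p = 0.548); without the 2 arrays farthest from the median of Nphs1, r was 0.61. Podxl and Ptpro gave r = 0.60 (exact permutation p = 0.0258, adjusted p = 0.316) and rho = 0.60 (exact permutation p = 0.109, adjusted p = 0.673), and r was 0.33 without the 2 arrays farthest for Podxl. Wt1 and Synpo gave the lowest, r = -0.52 and rho = -0.30 (exact permutation p = 0.170 and 0.462, adjusted p = 0.596 and 0.858), and r was -0.13 without the 2 arrays farthest for Wt1. Of the 21 relations, 0 passed after adjustment.

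**Figure D3:**
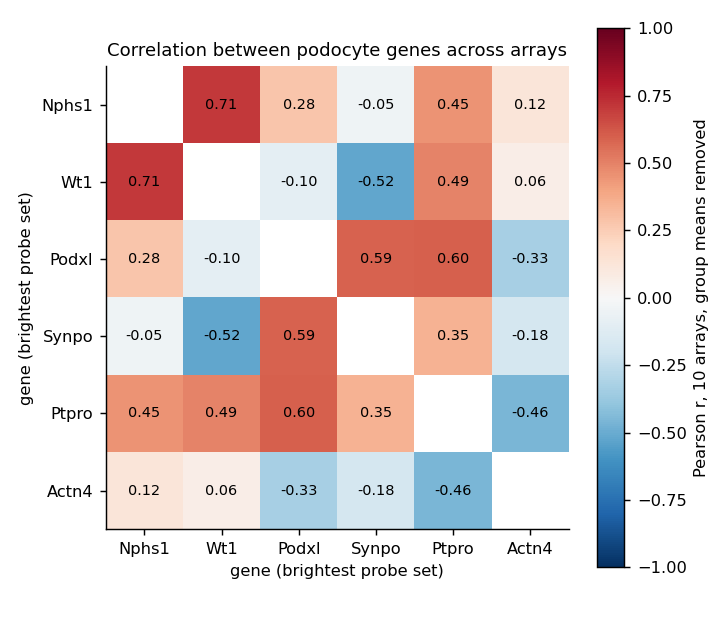
Pearson correlation over 10 arrays between the brightest probe sets of the 6 genes, after removing each group's mean; colour runs from -1 (blue) to 1 (red), and rows and columns are the same genes. The highest cell is Nphs1 with Wt1, at 0.71, and the lowest is Wt1 with Synpo, at -0.52.

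The mean log2 signal of the 5 more podocyte-restricted genes (Nphs1, Wt1, Podxl, Synpo and Ptpro) gives a single value per array. It was 8.89, 8.99, 9.07, 8.83 and 8.79 on normal arrays and 8.95, 8.96, 8.91, 8.92 and 9.02 on treated arrays. Normal replicate 3 was the highest and normal replicates 4 and 5 were the lowest of all 10, and the treated arrays lay between them. The group means were 8.91 ± 0.11 and 8.95 ± 0.043. Whether the 5 genes share 1 profile was not tested. With group means removed, r of each with the mean standardised profile of the other 4 ran from 0.13 for Synpo to 0.78 for Ptpro. Ptpro also varied most, with a residual SD of 0.21 against 0.063 (Nphs1) to 0.14 (Podxl), so it weighs most in this mean. Among 7261 other tested genes, those whose profile within groups was most like the mean standardised profile of the 5 were Ankrd37 (r = 0.91), the ETS factor gene Elk3 (0.91), the profilin gene Pfn2 (0.88), the spliceosome gene Snrpb (0.88), Itm2c (0.86), Dusp23 (0.86), Pop5 (0.85) and Vps11 (0.84). These are the 8 highest of many values over 10 arrays and are given as a description. The profile of the 5 was farthest from 0 on normal replicates 3 (1.27) and 5 (-1.08), and ran from -0.39 to 0.45 on treated arrays. Its own genes had r with it from 0.42 for Synpo to 0.89 for Ptpro. Of the 8 similar genes, 0 differed between the groups (limma, adjusted p from 0.931 to 0.998). No podocyte gene of the lists described next was among them.

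Other genes of the podocyte and of the filter it belongs to were read from lists written for this tissue, with earlier results of these data known. Of 21 other slit diaphragm proteins and adaptors, 13 were tested; 9 were higher and 4 lower, with a median log2 difference of 0.033 (0.0029 over 7267 tested genes) and 0 past the adjusted threshold; the median was -0.011 without treated replicate 7 and 0.065 without normal replicate 3. The 3 with the smallest p were the giant cadherin gene Fat1 (1478 ± 47.9 and 1582 ± 89.3, log2 difference 0.097 ± 0.052), the scaffold gene Iqgap1 (-0.085 ± 0.054) and the P-cadherin gene Cdh3 (0.13 ± 0.085), with limma adjusted p of 0.941, 0.961 and 0.970. Trpc6, the calcium channel of the slit, was below the filter at 31.0 ± 4.34 and 32.7 ± 5.74. The list of foot process cytoskeleton genes had 26 symbols, with Nherf1 and Nherf2 entered under both old and new names. From it 19 genes were tested, 6 higher and 13 lower, with a median of -0.0095. Its leading members were the actin capping gene Capzb (-0.15 ± 0.086), the small GTPase gene Rac1 (0.10 ± 0.058) and the myosin gene Myo1e (-0.10 ± 0.083), none of which passed (limma, adjusted p = 0.941, 0.941 and 0.973).

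Transcription factors of the podocyte and their partners gave 6 tested genes of 15, with a median of 0.027, and 0 passed. The bHLH factor gene Tcf21 stood at 989 ± 111 and 1023 ± 83.0; the 3 with the smallest p were Zhx2 (-0.099 ± 0.11), Ldb1 (-0.066 ± 0.075) and Wtip, whose product binds WT1 (0.070 ± 0.087), each with a limma adjusted p of 0.973. The next list held 19 other podocyte markers, whose signals in whole kidney cannot be assigned to podocytes alone. Of the 19, 11 were tested, 5 higher and 6 lower, with a median of -0.058. Without single arrays that median ran from -0.11 (treated replicate 8) to -0.022 (normal replicate 3), and with a stricter filter it was 0.024. Cdkn1c, the cell cycle inhibitor of podocytes that have stopped dividing, stood at 2296 ± 90.4 and 2453 ± 96.8 (0.095 ± 0.048, limma adjusted p = 0.934). The serine protease gene Htra1 (-0.15 ± 0.091) and the podoplanin gene Pdpn (-0.14 ± 0.097) followed, and the growth factor gene Vegfa stood at 1116 ± 77.1 and 1074 ± 119.

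The glomerular basement membrane, made by podocytes together with endothelial cells, was represented by 15 tested genes of 18, 7 higher and 8 lower, with a median of -0.0092 and 0 past the threshold. Col4a2 (0.12 ± 0.074), the laminin gene Lamb2 (-0.097 ± 0.071) and the nidogen gene Nid1 (-0.066 ± 0.055) had the smallest p (limma, adjusted p = 0.953, 0.973 and 0.973). Integrin Itga3, the receptor that anchors podocytes to it, stood at 353 ± 32 and 361 ± 21.2. Col4a4, a chain of the mature membrane, was below the filter at 42.7 ± 6.27 and 38.0 ± 3.47. Col4a5, another of its chains, was tested at 926 ± 78.6 and 898 ± 92.9 (-0.046 ± 0.077, limma adjusted p = 0.979).

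Markers of the neighbouring cells were read the same way. Parietal epithelial markers (7 tested of 8) had a median of 0.0017, endothelial markers (8 of 14) one of -0.017, nephron progenitor genes (3 of 12) one of -0.031 and mesothelial markers (3 of 6), a further site of Wt1 and Podxl, one of -0.00059. Of the 21 tested members of these 4 lists 0 reached an unadjusted p under 0.05, which 5.16% of all tested genes did. Their leading members were Akap12 (0.048 ± 0.054) and Krt18 (-0.066 ± 0.090) of the parietal list, and Flt1 (-0.13 ± 0.088) and Pecam1 (-0.083 ± 0.11) of the endothelial list. Lhx1 (-0.10 ± 0.096) led the progenitor list and Krt7 (-0.15 ± 0.072) the mesothelial list. In the progenitor list, Hes5, Wnt4 and Gdnf were below the filter and not tested. Hes5 had a lower treated mean (40.1 ± 10.2 against 76.8 ± 28.7). Those of Wnt4 and Gdnf were higher (44.2 ± 8.59 against 34.0 ± 8.27, and 29.1 ± 8.16 against 27.0 ± 7.64). All are signals of whole kidney and cannot be assigned to these cell types. In the mesangial list, 9 tested of 12 with a median of -0.050, 2 members had an unadjusted p under 0.05: Tagln (473 ± 65.3 and 352 ± 68.4) and the intermediate filament gene Des (135 ± 11.9 and 173 ± 22.8). Their log2 differences were -0.42 ± 0.12 and 0.32 ± 0.094, and neither passed (limma, adjusted p = 0.697 and 0.728). Des is also made by injured podocytes, and which cells gave its signal here was not tested. Among 6 tested nerve genes, of tissue that shares Ptpro and Synpo, the median was -0.11, with Pmp22 at -0.14 ± 0.063, and the 12 proximal tubule markers had a median of -0.058, led by Slc5a2 at -0.29 ± 0.097. An unadjusted p under 0.05 was reached by 1 of the 6 and 3 of the 12, and 0 members of either list passed after adjustment.

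**Figure D4:**
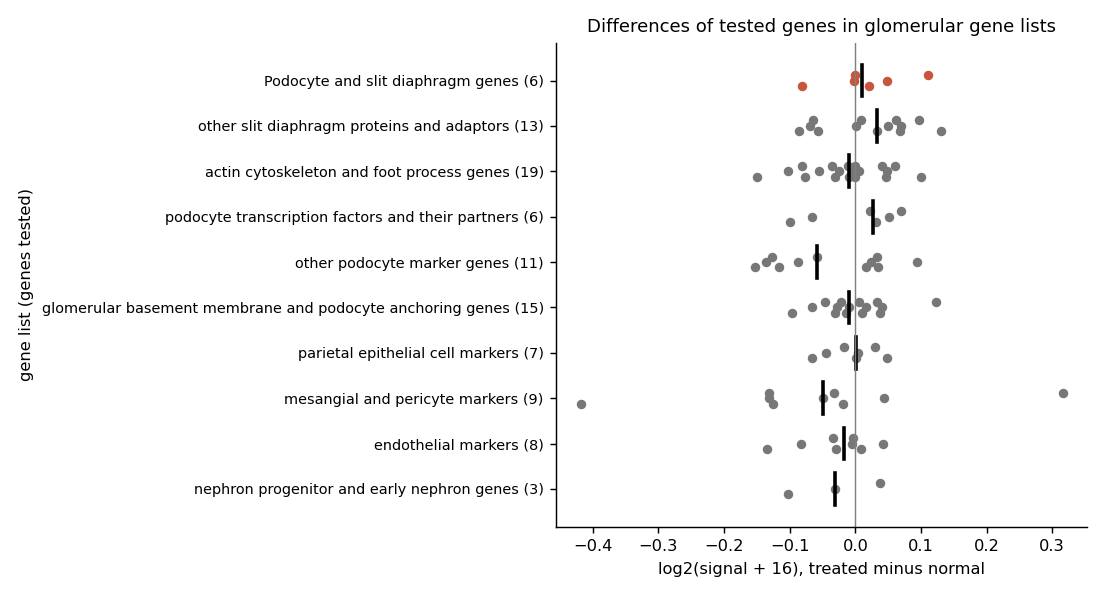
Log2 difference between the groups, treated minus normal (horizontal axis, log2(signal + 16)), of each tested gene in 10 glomerular and nephron lists; each point is a gene at its brightest tested probe set, black bars are list medians, and the podocyte members are in red. The 6 red points lie between -0.081 and 0.11, and the 2 points farthest from 0 are Tagln (-0.42) and Des (0.32) of the mesangial list.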

How the data were processed

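The deposited values were linear intensity values, 1 MAS5 signal per probe set and array, per the submitters' processing notes; its version and settings are not given in the sources used here. All arrays had a mean of 250.0 after trimming 2% from both tails, as scaling to a common target gives. GEO's platform table gave 1 symbol for 12789 probe sets, several for 312 and none for 2822; 12754 matched GRCr8 by Entrez identifier, used for names. The 57 control probe sets were dropped. The test covered 9601 probe sets (7267 genes) at or above the 40th percentile of the array on 5 arrays or more. The model was limma 3.58.1 in R 4.3.3 on log2(signal + 16), with lmFit and a trended eBayes. Its two-sided p-values were adjusted by Benjamini-Hochberg, and 0.05 was the threshold. Exact two-sided permutation tests served for single probe sets; with 5 arrays in each group their smallest p is 0.00794. Correlations used log2 values with group means removed; their exact permutation p-values (14400 rearrangements within groups) were added to a plan that had described them without p. Lists were described by their counts and medians, at the brightest tested probe set per gene. Named genes were all members, the 3 tested genes with the smallest p of each list (not all are printed), the 8 most similar profiles, Xist and Alb; others were named after their values were seen. The members and lists were chosen with earlier results of these data known. The limma fit was tested on simulated data. Promoter stretches came from RefSeq (GRCr8), which matched 6 of the 7 genes. The number of arrays limits the precision. Python 3.11.15 with matplotlib 3.10.9 made the figures.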

Additional observations from a re-analysis of the deposited data

How the results depend on the processing

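Under 21 alternatives (other pseudocounts, filters, normalizations and variance models, array weights, covariates, each array left out and, added after the data were seen, the 2 arrays with the most Alb left out) 0 member probe sets passed limma's adjusted threshold; adjusted p-values ran from 0.714 up. The brightest probe sets of Nphs1 (0.015 to 0.071) and Wt1 (0.056 to 0.15) stayed above 0, as did Nphs1 1369154_at (0.00045 to 0.20), and Actn4 (-0.17 to -0.050) below it. Members with an unadjusted p under 0.05 numbered 0 in all settings except the liver covariate (1, Actn4) and the omission of single arrays (0 to 1, Wt1 without treated replicate 7). Values near 0 changed sign. Podxl 1369895_s_at was 0.11 with the liver covariate, 0.0045 without the 2 arrays and -0.062 to 0.039 without single arrays. Synpo 1388786_at was 0.00068 with arrays shifted to a common median, 0.040 with the liver covariate, 0.00085 with the Gapdh covariate, 0.032 without the 2 arrays and -0.035 to 0.029 without single arrays. Ptpro was -0.038 with array weights, -0.042 without the 2 arrays and -0.050 to 0.11 without single arrays. Wt1 1369695_at was -0.053 with array weights, and Podxl 1387933_s_at ran from -0.073 to 0.0039 without single arrays. List medians also moved: other podocyte markers to 0.024 with the stricter filter, -0.00010 with array weights and 0.00062 with the liver covariate; basement membrane to 0.015, progenitors to 0.044 and liver to -0.012 with the liver covariate, the last by construction; progenitors to -0.12 without the 2 arrays; and nerve genes to -0.038 without a filter, -0.043 without the 2 arrays and -0.032 with probe sets averaged per gene. The slit diaphragm median was -0.0098 without the 2 arrays. Without single arrays the medians ran from -0.011 to 0.065 for the slit diaphragm, -0.024 to 0.0096 for the cytoskeleton, 0.0090 to 0.046 for transcription factors, -0.11 to -0.022 for other podocyte markers, -0.019 to 0.0091 for the basement membrane, -0.032 to 0.012 for parietal cells, -0.085 to -0.028 for mesangium, -0.049 to -0.0011 for endothelium, -0.095 to 0.036 for progenitors, -0.067 to 0.050 for mesothelium, -0.14 to -0.056 for nerve, 0.57 (without treated replicate 6) to 1.32 for liver and -0.082 to -0.039 for proximal tubule. No member of these lists passed in any setting. Over the whole table the count of 1 probe set became 5 without a filter, 2 with the common median, 4 with array weights, 0 without the trend, with the liver covariate or without the 2 arrays, and 0 to 4 without single arrays. Other causes of these moves were not tested. No paired analysis was possible because the groups share no replicate numbers.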
